A study of Mus musculus with 12 samples.

Results

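Hox genes encode homeodomain transcription factors that give cells their position along the body axis. They sit in 4 chromosomal clusters, Hoxa to Hoxd, and the genes of the same rank in each cluster form a paralogue group, numbered from 1 at the anterior end to 13 at the posterior end. The posterior groups pattern the urogenital tract: Hoxa13 and Hoxd13 are needed for normal growth and branching of the prostate and seminal vesicle, and Hoxa10 for the form of the accessory sex glands.

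The genes described here are the 38 protein-coding Hox genes of the 4 clusters that the file rows name, with 1 Hoxb gene left out, among 41042 genes listed. The Hoxa cluster on chromosome 6 gave 11 members, and the Hoxb cluster on chromosome 11, the Hoxc cluster on chromosome 15 and the Hoxd cluster on chromosome 2 gave 9 each. Their transcripts were measured by RNA-seq of whole prostate from male C57BL/6 mice aged 15 months, in 4 groups of 3 mice with 1 library each. The first group was labelled WT. Pb-ERG mice carried an ERG transgene driven by the probasin (Pb) promoter, and Trp53pc-/- mice lacked Trp53 in prostatic cells through Cre recombinase under the same kind of promoter. The fourth group, labelled Pb-ERG, Trp53pc-/-, carried both and is called the double mutant below. Both engineered changes were therefore limited to cells in which a probasin promoter was active, while each library held the RNA of all cells of the tissue piece.

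The deposited values are FPKM, fragments scaled by transcript length and by library total, so levels of different genes can be set side by side. Library totals ran from 19747635 to 32565774 fragments, and between 2025 and 12436 of them lay in the Hox members. Precision at low levels is set by these counts: 3 fragments in a transcript of 2000 bases correspond to 0.046 to 0.076 FPKM, and this limit covers counting error only. As a check on the labels, the Erg transcript lay at 0.268 to 0.925 FPKM in the 6 libraries without the transgene and at 8.26 to 27.1 FPKM in the 6 with it. The Trp53 transcript counted over the whole gene did not separate the groups, at 5.32 to 22.3 FPKM over the 12 libraries.

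Double mutant replicate 3 stood apart from the other 11 libraries. The smooth muscle myosin transcript Myh11 was at 0.679 FPKM there against 46.9 to 215 FPKM in the others, and the mean log2(FPKM + 1) of 11 smooth muscle markers was 3.29 against 5.24 to 7.11. The mean of 6 skeletal muscle markers was 5.49 against 1.16 to 2.05. Tgm4, a prostate-secreted transglutaminase, was at 50.2 FPKM against 3716 to 29959, and Pbsn, the probasin transcript itself, at 53.3 FPKM against 5505 to 20035. The luminal keratin Krt8 was at 235 FPKM there, with 232 and 227 FPKM in the other double mutant libraries and 59.0 to 133 FPKM elsewhere. Seminal vesicle secretory transcripts also differed widely between libraries of 1 group, with Svs4 between 1.23 and 34926 FPKM over the 12. Pb-ERG replicate 1 had the highest mean of 7 seminal vesicle markers, at 10.6 against 0.287 to 8.91 in the others. Its mean of 4 epididymis and vas deferens markers was also the highest, at 1.85 against 0.027 to 1.44. The part of tissue makeup in any difference below was not tested beyond the values given, and fewer cells of a type and less RNA per cell cannot be told apart in bulk tissue. Results that rest on double mutant replicate 3 are given with and without it.

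Of the 38 members, 34 had at least 3 fragments in at least 1 library and 16 reached a mean of 1 FPKM in at least 1 group. Those 16 were 10 of the posterior groups 9 to 13, 5 of the central groups 4 to 8 and 1 of the anterior groups 1 to 3. Hoxb1, Hoxc12, Hoxc13 and Hoxd1 had under 3 fragments in every library and were not detectable at this depth. Here and below, sums and shares of Hox FPKM are over these 38 members only, without the Hoxb gene left out. The 9 Hoxc members summed to 0.018% to 1.34% of the Hox FPKM of a library, and none of them passed 0.780 FPKM. The 18 detected members without a group mean of 1 FPKM, Hoxb4 among them, reached at most 1.54 FPKM in any library.

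**Figure D1:**
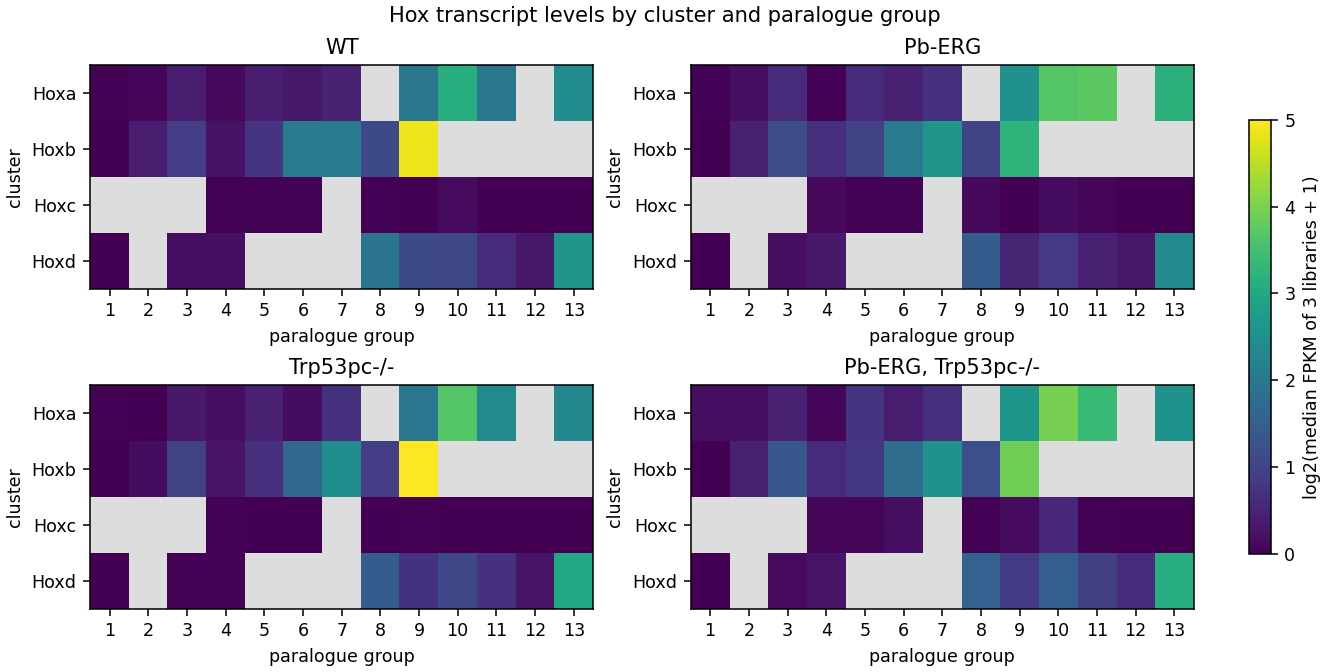
Hox levels by cluster (rows) and paralogue group (columns) in the 4 groups, each cell the log2(FPKM + 1) of the median of 3 libraries; grey cells hold no gene used here. Hoxb9, the Hoxa genes of groups 9 to 13, Hoxd13 and the central gene Hoxb7 are among the brightest cells, and the Hoxc row stays near 0.

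In WT prostate most transcript of the 38 members came from the posterior ones. They made up 79.8% to 82.1% of the summed Hox FPKM in the 3 WT libraries, the central members 15.5% to 17.7% and the anterior members 2.23% to 2.65%. Over all 12 libraries the posterior share lay between 74.7% and 88.2%. The shares of the clusters spread further. Hoxb made up 50.4% to 59.6% in WT and 8.95% to 36.9% in the double mutant, the lowest in replicate 3. Hoxa made up 25.3% to 33.2% in WT and 46.6% to 51.3% in the double mutant, the highest in replicate 3. In double mutant replicates 1 and 2, Hoxb made up 33.0% and 36.9%, and Hoxa 46.6% and 47.2%. Pb-ERG replicate 1, with 59.3% from Hoxb and 24.5% from Hoxa, had shares like WT, unlike Pb-ERG replicates 2 and 3 with 21.6% and 31.6% from Hoxb.

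Among the 38 members the order of levels in WT was led by 1 gene, Hoxb9. This posterior member lies at chr11:96271457-96276595 on the plus strand in mm10 coordinates. It stood at 29.7 ± 3.75 FPKM (SD, n = 3) and carried 41.4% ± 4.3 (SD, n = 3) of the summed FPKM of the 38 members. Hoxa10 followed at 8.46 ± 2.24 FPKM, and its libraries did not overlap those of Hoxb9. Hoxd13 at 5.74 ± 1.37 FPKM overlapped Hoxa10 above it and Hoxa13 below it, the last at 4.48 ± 0.43 FPKM (SD, n = 3 for each). From Hoxb7 at 3.35 ± 0.39 FPKM down to Hoxd10 at 1.06 ± 0.18 FPKM, each of the 8 members (Hoxb7, Hoxa11, Hoxa9, Hoxb6, Hoxd8, Hoxb8, Hoxd9 and Hoxd10, in falling order of their means) overlapped the members next to it in that order, so next neighbours did not differ beyond the spread of 3 libraries. Members farther apart did: the lowest WT library of Hoxb7, at 3.05 FPKM, lay above the highest of Hoxb8, at 1.65 FPKM.

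The 2 members called in any comparison below, Hoxa11 and Hoxb4, are shown by the 250 bases before their start sites, since ERG belongs to the ETS family of factors that bind DNA around a GGAA core. The sequences are RefSeq's for build GRCm38.p6, printed 5′ to 3′ on the gene's strand, with GGAA or its reverse complement TTCC in capitals. Hoxa11 lies on the minus strand, its window at chr6:52245811-52246060, and Hoxb4 on the plus strand, its window at chr11:96318017-96318266.
Hoxa11: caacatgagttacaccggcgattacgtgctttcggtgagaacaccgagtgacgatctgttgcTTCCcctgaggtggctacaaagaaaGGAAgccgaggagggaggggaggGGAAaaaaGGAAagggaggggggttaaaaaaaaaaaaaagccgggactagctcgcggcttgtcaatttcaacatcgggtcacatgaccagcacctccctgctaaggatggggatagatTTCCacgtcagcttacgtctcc
Hoxb4: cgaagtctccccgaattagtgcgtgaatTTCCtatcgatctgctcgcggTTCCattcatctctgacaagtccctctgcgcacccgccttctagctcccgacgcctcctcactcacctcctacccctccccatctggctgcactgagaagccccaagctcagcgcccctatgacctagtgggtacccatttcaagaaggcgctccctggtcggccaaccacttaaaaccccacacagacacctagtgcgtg
GGAA on either strand occurred 5 times in the Hoxa11 window and 2 times in the Hoxb4 window. It was in 93.45% of the 32851 promoter windows of this length in the table, with a median of 3 matches, and in 20 of the 22 Hox windows given there, with a median of 2. The longer run CCGGAA, which contains GGAA, was in 12.03% of all windows and in 0 of the 22 Hox windows. These matches describe letters and say nothing of binding.

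To ask how the ERG transgene and Trp53 loss changed the members, log2(FPKM + 1) was fitted with limma over all 17623 genes with enough fragments, of which 24 were Hox members. Of the other 14 members, 10 were detected but too low to test, with at most 0.670 FPKM in any library. The largest log2 difference for the ERG transgene was in Hoxa11, a posterior member best known for patterning the limb and the reproductive tract. Its level was 2.80, 3.69 and 2.98 FPKM in WT replicates 1 to 3, 4.12, 14.8 and 12.4 FPKM in Pb-ERG, 2.9995, 4.27 and 4.77 FPKM in Trp53pc-/-, and 9.48, 7.27 and 44.7 FPKM in the double mutant. All but 1 of the 6 transgenic libraries lay above every library without the transgene, and the exception was Pb-ERG replicate 1. With the transgene effect averaged over Trp53 status, Hoxa11 was higher by 1.49 ± 0.42 (SE) on the log2(FPKM + 1) scale, with an adjusted p of 0.022 in limma. In FPKM the 6 transgenic libraries averaged 15.5 ± 14.8 (SD) and the 6 others 3.59 ± 0.80 (SD), a difference with p = 0.0065 in a two-sided exact permutation test, for which 0.0022 is the smallest p possible. Without double mutant replicate 3 the log2 difference was 1.11, with an adjusted p of 0.015 in limma. The call was lost without Pb-ERG replicate 2 (adjusted p 0.057) or Pb-ERG replicate 3 (adjusted p 0.056), and held without any other single library.

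Hoxb4, a central member that acts in anterior trunk and blood progenitors, was low throughout but was called in the same comparison. It was measured at 0.179, 0.170 and 0.290 FPKM in WT, 0.311, 0.814 and 0.613 FPKM in Pb-ERG, 0.194, 0.217 and 0.069 FPKM in Trp53pc-/-, and 0.514, 0.442 and 1.08 FPKM in the double mutant. Here the 6 transgenic libraries and the 6 others did not overlap, and it was the 1 member of 24 for which this held, while 11.8% of all tested genes lay wholly higher in the transgenic libraries. The log2 difference was 0.44 ± 0.11 (SE), with an adjusted p of 0.016 in limma and p = 0.0022 in the exact permutation test, the smallest it can give. It was called with each of the 12 libraries left out in turn. At such levels the log2(FPKM + 1) scale understates a ratio, and the means of 0.629 and 0.187 FPKM differed 3.37-fold.

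Hoxa11 and Hoxb4 were 2 of 24 members called for the transgene, both higher, at an adjusted p under 0.05. Among all tested genes 29.3% were called higher and 31.4% in either direction, so the share of Hox members called was not above that of the background. The median difference of the 24 members was 0.26 and that of all tested genes 0.26. The scaling matters for these counts: with median-of-ratios scaling 2206 genes were higher and 1781 lower in place of 5169 and 371, the median of all genes moved to 0.004, and the same 2 members were called.

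**Figure D2:**
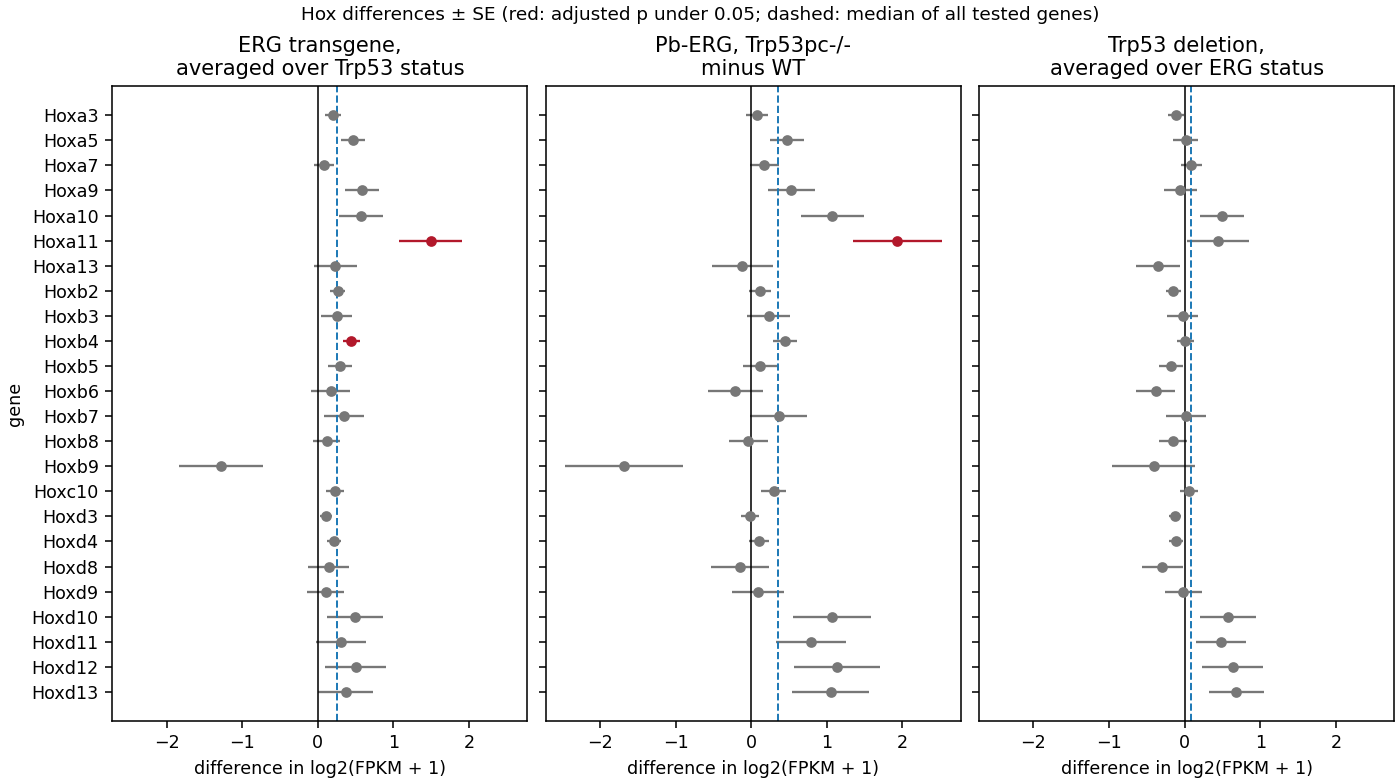
Differences in log2(FPKM + 1) with their standard errors (bars) for the 24 tested members in 3 limma comparisons; red points have an adjusted p under 0.05 and the dashed line is the median of all tested genes. Hoxa11 and Hoxb4 are red for the ERG transgene and Hoxa11 alone for the double mutant minus WT.

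Hoxb9 was lower in most transgenic libraries, but was not called. Its 3 WT libraries were at 26.9, 28.3 and 34.0 FPKM, Pb-ERG at 36.8, 6.17 and 8.56 FPKM, Trp53pc-/- at 44.8, 32.7 and 9.25 FPKM, and the double mutant at 14.04, 16.6 and 2.25 FPKM. Pb-ERG replicate 1 was high like WT, and Trp53pc-/- replicate 3 was low although it had no transgene. All 3 double mutant libraries lay below all 3 WT libraries, but with 3 against 3 the exact permutation test cannot go below p = 0.1. The transgene difference was -1.28 ± 0.55 (SE) in log2(FPKM + 1), with an adjusted p of 0.098 in limma. Without Pb-ERG replicate 1 it was -1.64 with an adjusted p of 0.028, so that 1 library decided the call, and without double mutant replicate 3 it was -0.89 with an adjusted p of 0.18.

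The share of the summed FPKM of the 38 members held by Hoxb9 shows the same spread between libraries. It was 37.2%, 41.2% and 45.8% in WT, 43.0%, 7.88% and 12.5% in Pb-ERG, 46.1%, 39.9% and 26.4% in Trp53pc-/-, and 19.2%, 22.4% and 1.27% in the double mutant. In double mutant replicate 3 the leading member was Hoxa11, with 25.4% of the sum, followed by Hoxa10 with 20.5% and Hoxd13 with 20.1%.

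**Figure D3:**
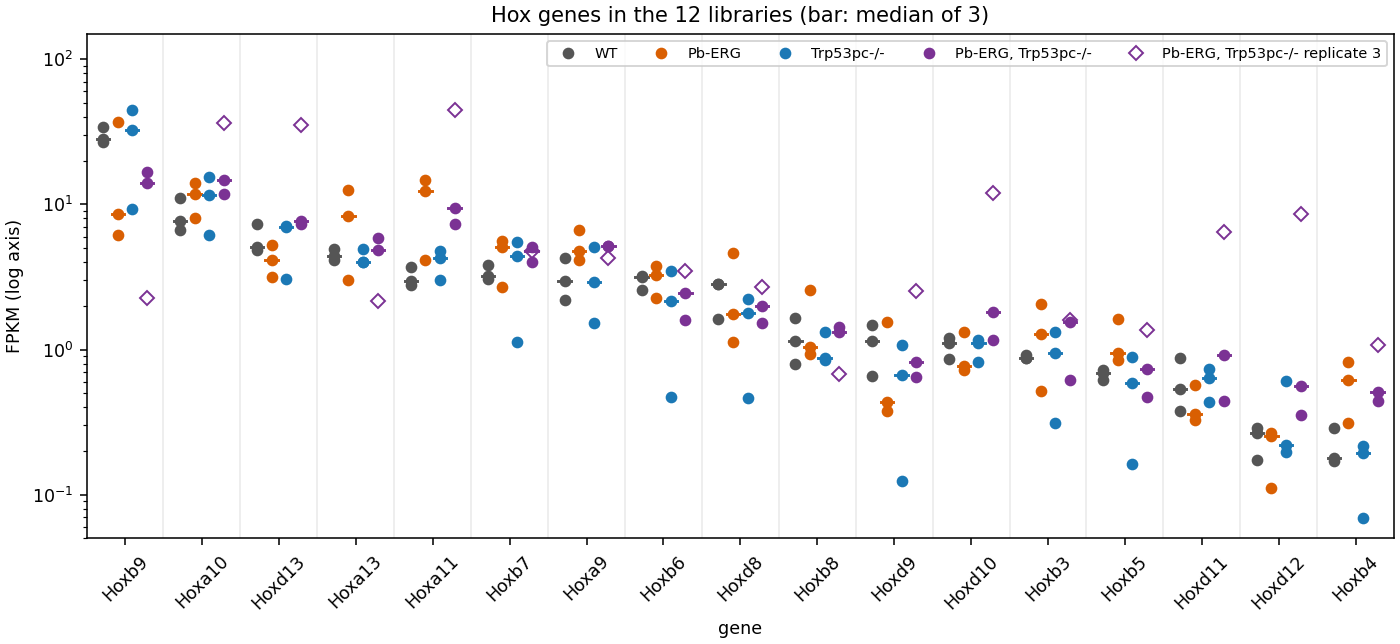
FPKM (log axis) of the 16 members with a mean of 1 FPKM in some group, and of Hoxb4, in each of the 12 libraries; bars mark the median of 3 and the open diamond is double mutant replicate 3. Hoxb9 led in WT, and the open diamonds stand above all other libraries for Hoxa10, Hoxa11, Hoxb4 and Hoxd9 to Hoxd13.

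In the double mutant against WT, 1 of 24 members was called, Hoxa11, higher by 1.93 ± 0.59 (SE) with an adjusted p of 0.038 in limma. All tested genes were called higher in 22.0% of cases and in either direction in 23.4%, with a median difference of 0.35 against 0.20 for the 24 members. The call did not survive another scaling: the adjusted p was 0.079 with median-of-ratios scaling, under which 1424 genes were higher and 1076 lower in place of 3880 and 247. Without double mutant replicate 3 the difference was 1.17 with an adjusted p of 0.079, and double mutant replicates 1 and 2 alone averaged 2.65 times the WT mean. Of 22 alternative settings, single libraries left out among them, 9 kept the call of Hoxa11. At an unadjusted p under 0.05 limma gave 3 members, Hoxa10, Hoxa11 and Hoxb4.

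Hoxa10 was at 10.98, 7.73 and 6.68 FPKM in WT, 8.10, 14.03 and 11.7 FPKM in Pb-ERG, 15.4, 11.7 and 6.17 FPKM in Trp53pc-/-, and 11.8, 14.8 and 36.2 FPKM in the double mutant. The double mutant libraries all lay above WT, and the difference of 1.07 ± 0.41 (SE) had an adjusted p of 0.080 in limma. Without double mutant replicate 3 it was 0.61, with an adjusted p of 0.24.

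The other comparisons gave few calls or none. For Pb-ERG minus WT limma called 0 of 24 members, with 2 at an unadjusted p under 0.05 (Hoxa11 and Hoxb4), and limma voom on recovered fragments called 0, while 2.18% of all tested genes were called. For the double mutant minus Trp53pc-/- it called 1, Hoxb4, higher by 0.52 ± 0.16 (SE) with an adjusted p of 0.045, against 18.7% of all tested genes higher and 19.7% in either direction. That call was kept in only 5 of 22 alternative settings, single libraries left out among them. It was lost, for example, with median-of-ratios scaling (adjusted p 0.066) and without double mutant replicate 3 (adjusted p 0.11). For the double mutant minus Pb-ERG it called 0 members, with 2 at an unadjusted p under 0.05 (Hoxd10 and Hoxd13) and 0 by voom, against 0.0170% of all tested genes. These comparisons share libraries with each other, so their values for a member are not independent.

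No member passed the threshold for Trp53 loss. For Trp53pc-/- minus WT the 24 members had 0 calls, 0 at an unadjusted p under 0.05 and 0 by voom, with 0% of all tested genes called. The same held for Trp53 deletion averaged over ERG status, with 0 calls, 0 at an unadjusted p under 0.05 and 0 by voom among the members and 0% of all genes. The non-additive effect, by which the transgene difference depends on Trp53 status, also gave 0 members called, 0 at an unadjusted p under 0.05 and 0 by voom, with 0% of all genes called. In the first of these, 908 genes had an unadjusted p under 0.05, in the second 1883 and in the third 1133. Trp53pc-/- replicate 3 had the lowest level of all 12 libraries for 14 of the 24 tested members, while this library was lowest for 20.6% of all tested genes. It also had the lowest summed Hox level, at 35.0 FPKM against 68.3 to 176 FPKM in the other libraries. FPKM is scaled by the library total, so abundant transcripts lower the values of all other genes. The secretory transcripts Spink3 and Sbp were highest in this library, at 140716 and 163452 FPKM. Their part in its low Hox values was not tested.

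The posterior end of the Hoxd cluster differed in 1 library. Hoxd13 lay at 5.09, 7.31 and 4.83 FPKM in WT, 5.28, 4.16 and 3.15 FPKM in Pb-ERG, 7.05, 7.02 and 3.04 FPKM in Trp53pc-/-, and 7.72, 7.27 and 35.4 FPKM in the double mutant. Hoxd12 lay at 0.287, 0.172 and 0.265 FPKM, then 0.254, 0.111 and 0.266 FPKM, then 0.197, 0.220 and 0.610 FPKM, and in the double mutant at 0.352, 0.564 and 8.56 FPKM. Double mutant replicate 3 was thus 4.59 times the highest other library for Hoxd13 and 14.03 times for Hoxd12.

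The members next to them showed the same library apart. Hoxd11 was at 0.326 to 0.918 FPKM in 11 libraries and at 6.42 FPKM in double mutant replicate 3, and Hoxd10 at 0.727 to 1.83 FPKM against 12.02 FPKM. In Hoxd10 the 3 WT libraries were at 1.12, 1.203 and 0.862 FPKM, Pb-ERG at 0.727, 1.33 and 0.768 FPKM, Trp53pc-/- at 1.17, 1.12 and 0.827 FPKM, and the remaining double mutant libraries at 1.83 and 1.17 FPKM. In Hoxd11 they were at 0.379, 0.874 and 0.537 FPKM, 0.359, 0.326 and 0.567 FPKM, 0.636, 0.729 and 0.437 FPKM, and 0.918 and 0.444 FPKM. Hoxd9 reached 2.53 FPKM in that library against 0.124 to 1.54 FPKM, and Hoxd8, the next towards the anterior end, did not leave the range of the others, at 2.701 FPKM against 0.467 to 4.599 FPKM.

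Averaged over the double mutant, the log2 differences from WT of Hoxd10, Hoxd12 and Hoxd13 were 1.07, 1.14 and 1.05, with adjusted p values of 0.146 to 0.158 in limma. Without replicate 3 they were 0.27, 0.23 and 0.35. In each of these genes 1 double mutant library was high and the other two were far closer to WT. Of the 24 tested members, 10 had their highest level of all 12 libraries in double mutant replicate 3 and 4 their lowest (Hoxa7, Hoxa13, Hoxb8 and Hoxb9). That library was also highest for 35.5% and lowest for 11.6% of all tested genes.

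**Figure D4:**
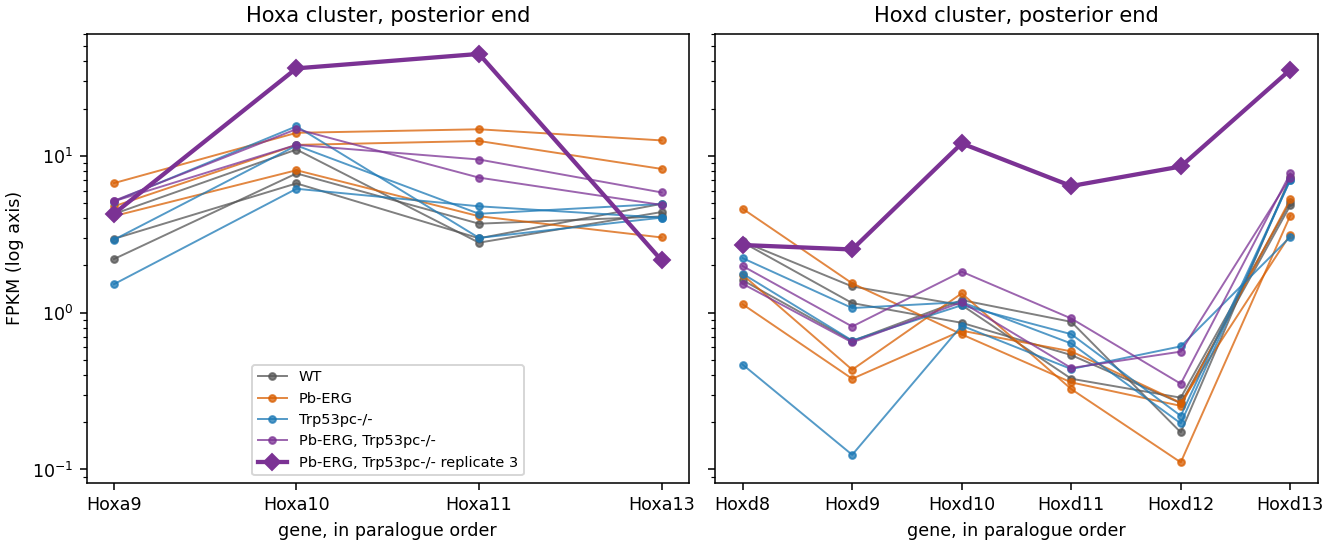
FPKM (log axis) along the posterior end of the Hoxa and Hoxd clusters, 1 line per library. Double mutant replicate 3 (thick line) lies above the others from Hoxd9 to Hoxd13 and at Hoxa10 and Hoxa11, and lowest of all at Hoxa13.

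Hoxa13, the last member of its cluster, did not follow Hoxd13. Its level was 4.38, 4.11 and 4.94 FPKM in WT, 3.02, 12.6 and 8.26 FPKM in Pb-ERG, 4.04, 4.94 and 4.04 FPKM in Trp53pc-/-, and 5.85, 4.87 and 2.16 FPKM in the double mutant. Pb-ERG replicates 2 and 3 were the highest and double mutant replicate 3 the lowest. Without Pb-ERG replicate 1 it was called for Pb-ERG minus WT, higher by 1.03 with an adjusted p of 0.045 in limma, and with that library it was not.

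Hoxa9 was at 4.26, 2.198 and 2.96 FPKM in WT, 4.13, 6.70 and 4.77 FPKM in Pb-ERG, 5.12, 2.92 and 1.52 FPKM in Trp53pc-/-, and 5.14, 5.17 and 4.27 FPKM in the double mutant. Its transgene difference of 0.58 ± 0.22 (SE) had an adjusted p of 0.064 in limma. Hoxa5, which was below 1 FPKM on average in every group, had a difference of 0.46 ± 0.16 (SE) with an adjusted p of 0.0502, just outside the threshold, while Hoxa11 with 0.022 was the called member nearest to it.

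Hoxb7 and Hoxb6, central members, were called in none of the comparisons above. Hoxb7 was at 3.80, 3.05 and 3.20 FPKM in WT, 5.61, 2.68 and 5.08 FPKM in Pb-ERG, 4.41, 5.49 and 1.13 FPKM in Trp53pc-/-, and 3.98, 5.04 and 4.78 FPKM in the double mutant. Hoxb6 was at 2.55, 3.17 and 3.19 FPKM, then 3.24, 2.25 and 3.73 FPKM, then 2.16, 3.48 and 0.472 FPKM, and in the double mutant at 1.60, 2.44 and 3.46 FPKM. Trp53pc-/- replicate 3 was the lowest library for both, and the double mutant libraries of Hoxb7 all lay above WT.

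Lower in the same cluster, Hoxb8 lay at 1.15, 0.793 and 1.65 FPKM in WT, 2.58, 0.930 and 1.04 FPKM in Pb-ERG, 1.33, 0.846 and 0.871 FPKM in Trp53pc-/-, and 1.32, 1.42 and 0.684 FPKM in the double mutant. Hoxb5 was at 0.727, 0.615 and 0.688 FPKM, 0.843, 1.61 and 0.949 FPKM, 0.592, 0.882 and 0.163 FPKM, and 0.740, 0.468 and 1.35 FPKM, the groups following each other as before. Hoxb3, the 1 anterior member with a group mean of 1 FPKM, was at 0.870, 0.910 and 0.868 FPKM, 0.515, 2.04 and 1.28 FPKM, 1.32, 0.949 and 0.314 FPKM, and 1.56, 0.616 and 1.60 FPKM. All groups of these 3 genes overlapped, except that Hoxb5 in the 3 Pb-ERG libraries lay above its WT levels.

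In the Hoxd cluster, Hoxd8 was at 2.85, 1.61 and 2.81 FPKM in WT, 4.599, 1.74 and 1.13 FPKM in Pb-ERG, 2.23, 1.77 and 0.467 FPKM in Trp53pc-/-, and 1.98, 1.53 and 2.701 FPKM in the double mutant. Hoxd9 was at 1.47, 0.659 and 1.15 FPKM, 1.54, 0.433 and 0.379 FPKM, 1.07, 0.664 and 0.124 FPKM, and 0.816, 0.646 and 2.53 FPKM in that order. Pb-ERG replicate 1 was the highest Pb-ERG library and Trp53pc-/- replicate 3 the lowest library of all for both.

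Reads from overlapping genes limit some of these values, because the library kit marks no strand. In the GENCODE M21 annotation, 35.0% of the 2287 exonic bases of Hoxa11 are also exonic in Hoxa11os, which lies on the opposite strand. Hoxa11os was at 4.42, 3.09 and 3.5004 FPKM in WT, 4.498, 36.8 and 24.9 FPKM in Pb-ERG, 4.33, 5.71 and 5.58 FPKM in Trp53pc-/-, and 6.15, 7.41 and 16.3 FPKM in the double mutant. The ratio of Hoxa11 to Hoxa11os was not constant, at 0.401 in Pb-ERG replicate 2 and 2.75 in double mutant replicate 3. Hoxa11os was highest in Pb-ERG replicates 2 and 3, the libraries without which the transgene call of Hoxa11 was lost. How many fragments counted for Hoxa11 came from Hoxa11os was not tested, so the level and the call of Hoxa11 are uncertain. Hoxb4 and Hoxb9 share no exonic base with another gene in that annotation. Hoxd3 shares 62.35% of its exonic bases with genes on its own strand and Hoxb3 52.9% with Hoxb3os on the opposite strand, so the level of each is uncertain. Hoxd10 shares 5.73% of 1816 exonic bases and Hoxd11 10.8% of 4212, or 455 bases, with a gene on their own strand. The FPKM of Hoxd11 rest on a shorter transcript length of 1111 bases, so its share there can be larger. Among the listed genes, Rp23-313j15.17 overlaps the spans of Hoxd10 and Hoxd11 on their strand. It was at 35.0 FPKM in double mutant replicate 3 and at 1.48 to 5.66 FPKM in the other libraries. Its part in the levels of Hoxd10 and Hoxd11 was not tested.

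Hox levels were then set against tissue makeup, with each library taken as its deviation from the mean of its group so that genotype does not enter. The 13 members with a mean of 1 FPKM over all 12 libraries were correlated with the mean of the smooth muscle, fibroblast and luminal markers, 39 relations in all, with exact permutation within groups. None passed 0.05 after Benjamini-Hochberg adjustment over the 39, the smallest adjusted p being 0.0903 for Hoxa9. At the raw p, 4 relations were under 0.05: Hoxb9 and Hoxa11 with smooth muscle, and Hoxa9 and Hoxa13 with luminal markers. These were picked out after their values were seen. Where r is given below without the 2 farthest libraries, the deviations were still those from the mean of the full group. A left-out library therefore still shaped the deviations of the others. Where r is given without double mutant replicate 3 alone, the group mean was taken anew.

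Hoxb9 and the smooth muscle mean had a positive correlation that did not pass the adjustment (r = 0.82, exact permutation p = 0.012, adjusted p 0.23; rho = 0.85, p = 0.018; n = 12). Without the 2 libraries farthest from the median marker score, double mutant replicates 3 and 2, r was 0.77. For Hoxa11 it was negative (r = -0.91, exact permutation p = 0.031, adjusted p 0.40; rho = -0.80, p = 0.044; n = 12), with r = -0.77 without the same 2 libraries. Without double mutant replicate 3 alone, r was 0.85 for Hoxb9 and -0.73 for Hoxa11. With the smooth muscle mean as a covariate in limma the transgene difference of Hoxa11 was 0.87 with an adjusted p of 0.018, that of Hoxb4 was 0.31 with an adjusted p of 0.029, and that of Hoxb9 was -0.53 with an adjusted p of 0.32.

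Hoxa9 and the luminal mean gave the lowest p of the 39 (r = 0.82, exact permutation p = 0.0023, adjusted p 0.090; rho = 0.88, p = 0.0031; n = 12), with r = 0.84 without double mutant replicate 3 and Trp53pc-/- replicate 3, the 2 farthest. Hoxa13 and the luminal markers gave r = 0.64 (exact permutation p = 0.046, adjusted p 0.45; rho = 0.53, p = 0.11; n = 12), and r = 0.59 without the same 2. Without double mutant replicate 3 alone, r with the luminal markers was 0.945 for Hoxa9 and 0.47 for Hoxa13. With the fibroblast markers no member had a raw p under 0.05, the highest r being 0.72 for Hoxb3. Some other relations changed widely without double mutant replicate 3. Hoxa10 with the luminal markers went from r = 0.09 to r = 0.98, and Hoxa13 with smooth muscle from r = 0.24 to r = -0.78. Both were picked out after their values were seen.

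**Figure D5:**
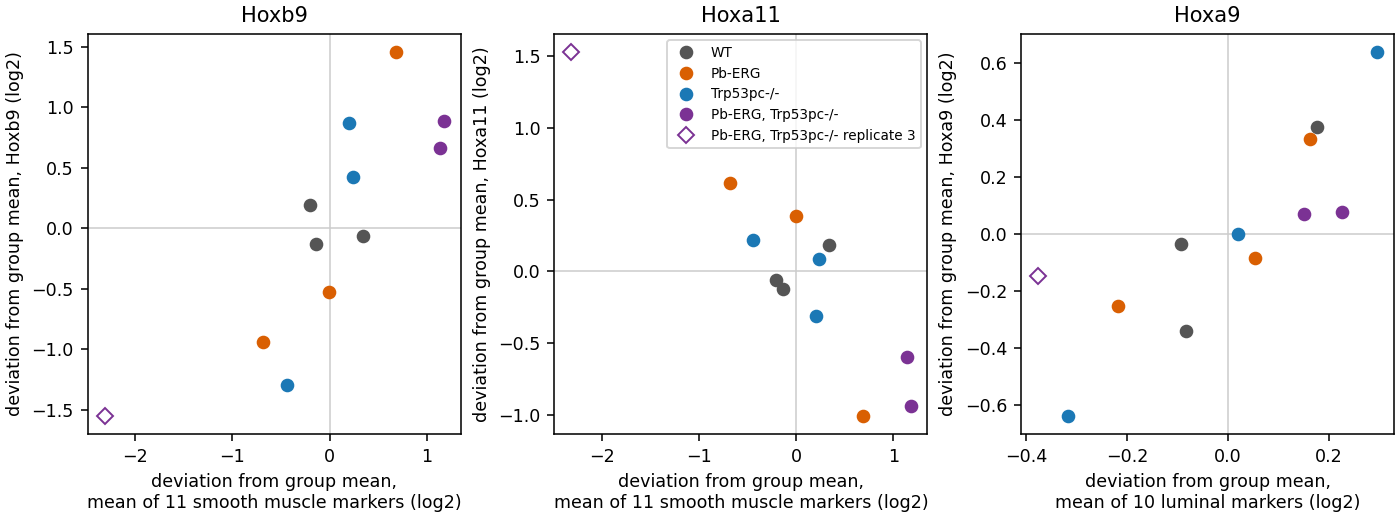
Deviations from the group mean in log2(FPKM + 1) for Hoxb9 and Hoxa11 against 11 smooth muscle markers and for Hoxa9 against 10 luminal markers; each point is 1 of 12 libraries, the open diamond double mutant replicate 3. The correlations were r = 0.82 for Hoxb9, r = -0.91 for Hoxa11 and r = 0.82 for Hoxa9, and none passed the adjustment over 39 relations.

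The fitted levels of the marker lists in the same comparisons stand beside this. Of the 11 smooth muscle markers 0 were called for the transgene, with a median log2 difference of -0.93, and of the 8 fibroblast markers 6 were called higher, with a median of 1.51. Of 7 tested leukocyte markers 5 were called higher, with a median of 1.22, and of 7 endothelial markers 4, with a median of 0.78. Of 10 luminal markers 3 were called higher and 1 lower, with a median of 0.38, and of the 5 secretory and lobe genes 1 was called lower and 0 higher, with a median of -2.45. These counts stand against 29.3% of all tested genes called higher and a median of 0.26, and of the other 8 marker lists 6 had 0 calls and 2 had 1 call each, a basal and a nerve marker, both higher. The part of these cell types in the Hox differences was not tested. Double mutant replicate 3 had the lowest smooth muscle mean of the 12 libraries and Pb-ERG replicate 2 the next, and these were also the libraries with the lowest Hoxb9 and the highest Hoxa11.

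Proteins that act on Hox genes were taken from lists of known members. Polycomb proteins keep Hox clusters silent, Trithorax proteins keep them active, and retinoic acid receptors and Cdx factors switch them on in the embryo. In the double mutant against WT limma called higher 3 of 14 Polycomb genes, 4 of 10 Trithorax genes and 5 of 13 retinoid and Cdx genes, where 1 more was lower. Of 15 urogenital signal and homeobox genes 2 were higher, Bmp4 and Isl1, and of 5 tested long RNAs of the Hox clusters 0 were called. The background of 22.0% called higher applies to these counts too. With median-of-ratios scaling the calls fell to 2 of 14 (with 2 lower), 0 of 10, 0 of 13 (with 1 lower), 0 of 15 (with 1 lower) and 0 of 5.

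Among the Polycomb genes called, Ezh2 and Phc2 also passed under that scaling and without double mutant replicate 3. Ezh2, the methyltransferase of Polycomb repressive complexes, was at 1.86 ± 0.33 FPKM in WT and 10.1 ± 3.45 FPKM in the double mutant (SD, n = 3 each), a log2 difference of 1.93 ± 0.34 (SE) with an adjusted p of 0.0063 in limma. Phc2, another Polycomb subunit, was at 7.24 ± 0.55 and 19.3 ± 2.92 FPKM, a difference of 1.30 ± 0.22 (SE) with an adjusted p of 0.0058.

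Other calls did not hold under every setting. The retinoic acid receptor Rarg was at 4.99 ± 0.43 FPKM in WT and 12.9 ± 3.69 FPKM in the double mutant, higher by 1.18 ± 0.27 (SE) with an adjusted p of 0.015, which became 0.082 with median-of-ratios scaling. Crabp1, a retinoic acid binding protein, was at 5.68, 17.8 and 17.3 FPKM in WT and at 0.053, 0.123 and 0 FPKM in the double mutant, but ranged from 0.778 to 81.4 FPKM within Trp53pc-/-. Its log2 difference was -3.64 ± 1.07 (SE) with an adjusted p of 0.035, and 0.075 without double mutant replicate 3. Bmp4, a growth factor that restrains prostate budding, was at 2.93 ± 1.13 and 7.12 ± 2.16 FPKM, higher by 1.05 ± 0.27 (SE) with an adjusted p of 0.023, and 0.13 with median-of-ratios scaling. The LIM homeobox gene Isl1 was at 1.61 ± 0.47 and 4.24 ± 2.11 FPKM, higher by 0.93, with an adjusted p of 0.038 and 0.13 with median-of-ratios scaling.

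Other called genes lost their call with median-of-ratios scaling. Among them were the Polycomb subunit Eed, the Trithorax genes Kmt2a, Kmt2d, Ash2l and the H3K27 demethylase gene Kdm6b, and the retinoid receptors Rara, Rxra and Rxrb. Their log2 differences lay between 0.55 for Eed and 1.55 for Rara, whose double mutant libraries were at 3.39, 3.10 and 17.1 FPKM.

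Among the long RNAs of the clusters, Hotair of the Hoxc cluster had no fragments or nearly none, at 0 to 0.02 FPKM. Hottip, which lies beyond Hoxa13, was at 0.148 to 0.728 FPKM in 11 libraries and at 2.48 FPKM in Pb-ERG replicate 2, the library with the highest Hoxa13. For the ERG transgene averaged over Trp53 status, limma called 2 of the 5 tested long RNAs higher, against 29.3% of all tested genes. With median-of-ratios scaling 0 of the 5 were called in that comparison.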

How the data were processed

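RNA-seq of prostate was used from 12 mice, 3 in each of 4 groups. According to the methods of the study, RNA was extracted with an RNeasy kit, libraries were made with a TruSeq RNA v2 kit and sequenced as read pairs on an Illumina HiSeq instrument, and reads were aligned with STAR (2.5.2b in the submitters' processing notes) to GRCm38/mm10. The authors counted fragments per gene with RSeQC and deposited them as FPKM. Strand use in counting is not given in the sources used here. FPKM times the listed transcript length came out as whole multiples of 1 fragment for every gene in every library, with a largest distance from a whole number of 4.65661e-10 fragments, which gave the library totals and the filter. Genes with at least 10 fragments (at the median library total) in at least 3 libraries and 15 in all were tested, 17623 of 41042.

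log2(FPKM + 1) was fitted with limma 3.58.1 (trend) in R 4.3.3 over the 12 libraries with 4 group means, with Benjamini-Hochberg adjustment over all tested genes and a call at an adjusted p under 0.05. Exact permutation tests were two-sided and run with SciPy 1.17.1 in Python 3.11.15. The fit was tested on simulated data. The alternatives were median-of-ratios scaling, scaling without genes above 1% of the fragments, other filters, a pseudocount of 0.1, only the groups compared, a replicate block, each library left out, a threshold of 0.001, limma voom on recovered fragments and a smooth muscle covariate.

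The Hox members were chosen by symbol; members and lists were chosen with earlier results of these data known. Levels are given per library for members with a mean of 1 FPKM in some group or a call in any comparison, and the other members by counts and ranges. Genes of the other lists are named where they were called in the double mutant against WT with a mean of at least 1 FPKM, and Crabp1 among them. One Hoxb gene and some results of the other lists are not reported here. Nothing in the labels says that the mice of a group came from separate litters, so p-values measure the spread between these mice.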

Additional observations from a re-analysis of the deposited data

How the results depend on the processing

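Of 173 alternative counts of called members, 131 lay within 1.5 times the count of the report, and of 426 alternative values of single genes 383 kept their direction and side of the threshold, 33 lost a call and 10 gained one; none changed direction. For the double mutant minus WT the count fell from 1 to 0 with limma voom on recovered fragments, median-of-ratios scaling, no filter on low values, only the groups compared, scaling without genes above 1% of the fragments and an adjusted p under 0.001, and ran from 0 to 4 when single libraries were left out, the highest without double mutant replicate 2. For the double mutant minus Trp53pc-/- it fell from 1 to 0 with at least 10 fragments in every library, median-of-ratios scaling, no filter, only the groups compared, scaling without genes above 1%, the smooth muscle covariate and an adjusted p under 0.001, and ran from 0 to 4 with libraries left out, the highest without double mutant replicate 2. For the ERG transgene averaged over Trp53 status the count of 2 became 1 with at least 10 fragments in every library, 4 with a pseudocount of 0.1 and 0 with an adjusted p under 0.001, and ran from 1 (without Pb-ERG replicate 2 or 3) to 5 (without Pb-ERG replicate 1). For Pb-ERG minus WT it ran from 0 to 1, the 1 being Hoxa13 without Pb-ERG replicate 1. The causes were not tested. All other counts stayed at 0.

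With a replicate block the counts were 2 for the ERG transgene, 1 for the double mutant minus WT and 0 for the double mutant minus Trp53pc-/-. Over 18 pairs of libraries with the same number the correlation of deviations ran from -0.24 to 0.37, and 8 pairs were over 0.1. For 6 of 12 libraries the mean correlation with the other groups was highest for libraries of their own number. These values do not settle whether the numbers mark a pairing, and the main fit used none. Depth limits the members below 0.046 to 0.076 FPKM, where 3 fragments in 2000 bases lie.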

Other observations

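Secretory genes that differ between prostate lobes were set against the Hox members after the data had been seen, as 65 further relations of deviations from the group mean. None passed 0.05 after Benjamini-Hochberg adjustment, the smallest adjusted p being 0.25 for r and 0.20 for rho. Hoxb9 and Tgm4, the transglutaminase of the prostatic secretion, gave r = 0.88 (exact permutation p = 0.012; rho = 0.93, p = 0.025; n = 12), and r = 0.94 without double mutant replicates 3 and 1, the 2 farthest. Hoxa11 and Tgm4 gave r = -0.93 (exact permutation p = 0.010; rho = -0.93, p = 0.0031; n = 12), and r = -0.88 without the same 2. Here too the values without 2 libraries kept the deviations from the mean of the full group. Without double mutant replicate 3 alone and with the group mean taken anew, r with Tgm4 was 0.95 for Hoxb9 and -0.77 for Hoxa11. The other 4 secretory genes gave Hoxb9 r = 0.69 with Pbsn, 0.03 with Msmb, -0.32 with Spink3 and -0.15 with Sbp, and Hoxa11 r = -0.79, -0.42, 0.10 and -0.12 in that order. With Msmb, Hoxb9 had r = -0.82 without double mutant replicates 3 and 2, the 2 farthest. The lowest raw p of the 65 was that of Hoxd8 with Msmb (r = -0.70, exact permutation p = 0.0077, adjusted p 0.25; rho = -0.75, p = 0.022; n = 12), with r = -0.82 without the same 2. The relations with Tgm4 were picked out after their values were seen. Tgm4 itself was at 25325, 19100 and 21316 FPKM in WT, 18973, 3716 and 4364 FPKM in Pb-ERG, 29959, 18684 and 4213 FPKM in Trp53pc-/-, and 9388, 6245 and 50.2 FPKM in the double mutant. The 4 libraries with the lowest Hoxb9, namely double mutant replicate 3, Pb-ERG replicates 2 and 3 and Trp53pc-/- replicate 3, were also those with the lowest Tgm4.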
